A study of Mus musculus with 24 samples.

Results

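The mouse genes of the kindlin family (Fermt1, Fermt2 and Fermt3), talin-1 (Tln1) and 6 integrin subunits (Itgav, Itga5, Itga6, Itgb1, Itgb3 and Itgb5) were followed across tumours of 2 cancer cell lines. These 10 genes, of 55335 in the deposited files, were chosen by name with earlier results of the same libraries known. No threshold set the list, but values seen earlier could have shaped the choice. The levels of the 10 genes are therefore given as a description. Each adjusted p shows where a gene stood in a fit across all genes and is no independent support. RNA was sequenced from 24 libraries of tumour tissue, 12 of MC38, a colon carcinoma line, and 12 of B16, a melanoma line. In each line, parental CHEK2-WT cells (WT) or cells labelled CHEK2-knock out (KO) formed the tumours. The gene named in the labels is Chek2, a checkpoint kinase gene. The mice received PBS or anti-PD-1, an antibody against the T-cell checkpoint receptor PD-1. The 8 groups of 3 libraries were thus MC38 WT with PBS, MC38 WT with anti-PD-1, MC38 KO with PBS, MC38 KO with anti-PD-1, and the same combinations in B16. The labels give neither mouse strain, sex, age and time of harvest nor whether the knock-out cells are 1 clone, and they do not say that the libraries of a group are separate animals. The p-values therefore measure the spread between these libraries, and what differs between the lines cannot be told apart from any separate handling of them.

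Integrins are adhesion receptors made of an alpha and a beta subunit, which bind matrix proteins outside the cell and are tied to actin inside it. Talin and a kindlin bind the tail of the beta subunit together and switch the receptor to its active form. Kindlin-1 is known from epithelial cells, kindlin-2 from most solid tissues, and kindlin-3 from blood cells. The alpha-v subunit pairs with beta-1, beta-3 and beta-5 among others to bind ligands with an Arg-Gly-Asp (RGD) motif, alpha-5 pairs with beta-1 as a fibronectin receptor, and alpha-6 is a subunit of laminin receptors.

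Levels are FPKM, fragment counts scaled by transcript length and library depth, so that genes can be compared per length. The depth in reads is not given and could not be recovered from these values. The sum of FPKM was 375193 to 398474 in the 3 libraries of B16 KO with anti-PD-1 and at most 344059 in the other groups, so this group stood apart from the rest of its line. Chek2, the targeted gene, was 4.61 to 6.14 FPKM in MC38 WT and 1.92 to 3.37 in MC38 KO, and 7.17 to 9.29 in B16 WT and 5.64 to 6.75 in B16 KO. It was lower in KO without overlap in both lines but not near 0, and the sources used here do not say which bases were removed. The sum of 8 melanocyte markers was 5104 to 6554.4 FPKM in B16 and at most 4.03 in MC38.

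The 3 kindlin genes showed 3 different patterns. Fermt2 lies on chromosome 14 (45458795 to 45530118, minus strand, mm10) and had the highest level of the family in every library, 64.7% to 88.2% of the summed kindlin FPKM in MC38 and 82.0% to 98.8% in B16. Fermt3, on chromosome 19 (6998958 to 7019469, minus strand), made up 11.8% to 35.2% in MC38 and 1.1% to 14% in B16. Fermt1, on chromosome 2 (132904389 to 132945906, minus strand), reached 6.86% to 15.8% in B16 WT with PBS and 7.08% to 13.4% with anti-PD-1, and at most 0.768% elsewhere.

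Promoters are shown for these 3 genes, since the results turn on their different patterns. Each is the 250 bases before the RefSeq transcription start (GRCm38.p6), 5′ to 3′ along the gene, and capitals mark matches to the GC box, GGGCGG on either strand. Fermt1 spans chr2:132946037-132946286 on the minus strand.
Fermt1: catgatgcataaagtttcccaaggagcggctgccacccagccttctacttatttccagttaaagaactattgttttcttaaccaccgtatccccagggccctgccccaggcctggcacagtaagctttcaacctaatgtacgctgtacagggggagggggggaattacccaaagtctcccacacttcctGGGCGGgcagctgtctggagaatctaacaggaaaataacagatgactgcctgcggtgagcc
Fermt2 spans chr14:45530066-45530315 on the minus strand.
Fermt2: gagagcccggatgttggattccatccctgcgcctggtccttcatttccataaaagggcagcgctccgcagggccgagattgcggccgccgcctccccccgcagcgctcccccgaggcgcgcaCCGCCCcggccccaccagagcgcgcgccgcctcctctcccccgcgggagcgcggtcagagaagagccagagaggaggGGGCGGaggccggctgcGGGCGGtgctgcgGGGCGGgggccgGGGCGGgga
Fermt3 spans chr19:7019470-7019719 on the minus strand.
Fermt3: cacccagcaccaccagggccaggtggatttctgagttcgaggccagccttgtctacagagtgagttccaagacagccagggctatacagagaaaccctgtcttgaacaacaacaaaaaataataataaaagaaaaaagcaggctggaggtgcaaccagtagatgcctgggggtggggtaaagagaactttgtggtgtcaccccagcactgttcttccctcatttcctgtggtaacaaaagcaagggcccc
The Fermt2 window was 76.0% G and C with 31 CpG and 5 GC boxes. The Fermt1 window was 52.4% G and C with 5 CpG and 1 GC box, and the Fermt3 window 50% with 1 CpG and no GC box. The median over 32851 promoters of this length was 52.4% with 6 CpG, and 32.7% held a GC box. Neither GAGGAA, the core bound by the myeloid factor PU.1 (23.3% of promoters), nor CATGTG, the M-box core of pigment cell genes (12.3%), occurred on either strand in the 3 windows. These matches describe letters and not binding.

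Fermt1 was present in B16 WT tumours and at or near 0 in every other group. In B16 WT with PBS its values were 4.39, 7.20 and 2.86 FPKM in replicates 1 to 3. In B16 WT with anti-PD-1 they were 3.64, 5.90 and 5.13 FPKM. In B16 KO it was listed at 0 in 5 of 6 libraries and at 0.0387 FPKM in the other, a PBS library. All 6 WT libraries were thus above all 6 KO libraries, and PBS and anti-PD-1 overlapped within WT. In MC38 the highest of the 12 values was 0.135 FPKM and the median was 0, so Fermt1 did not pass the filter (at least 1 FPKM in at least 3 libraries of a line) and was not tested there. In B16 it passed only through its WT libraries, which makes its call a description of the same contrast.

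On the log2(FPKM + 1) scale Fermt1 was lower in B16 KO than WT by -2.45 ± 0.24 (SE; adjusted p = 0.00212, limma) under PBS and by -2.54 ± 0.24 (adjusted p = 3.49e-05) under anti-PD-1. The pseudocount of 1 FPKM sets this size: with 0.1 FPKM the differences were -5.36 and -5.61. No fold is given, since the KO libraries were at or near 0. Both calls held in every alternative run, with adjusted p of 0.0227 or less. Within B16 WT, anti-PD-1 against PBS gave 0.07 ± 0.24 and was not called. Of 9941 genes with at least 2 FPKM in all 6 B16 WT libraries, Fermt1 alone had at most 0.1 FPKM in all 6 KO libraries, and none of 10225 did so in MC38, with limits chosen after the values were seen. None of 15 genes that every cell uses was at 0 in any library. Qser1 was the 1 gene listed at 0 in the 3 B16 KO libraries with anti-PD-1 among 6524 with at least 5 FPKM in each of the other 9 B16 libraries. Whether any exact 0 is a failed estimate was not tested. Of the 4 tested genes beside Fermt1, 1 was called, lower, in B16 KO against WT (averaged over treatments). Of all genes, 26.5% were called there, 19% lower, so the count is near that share. Mcm8 differed by -0.28 (adjusted p = 0.0444), Trmt6 by -0.11 (0.249), Crls1 by -0.13 (0.306) and Tmx4 by -0.04 (0.729). The summed level of 9 epithelial markers, the tissue kindlin-1 is known from, was 0.236 to 0.62 FPKM in B16 WT and 0.14 to 0.308 in B16 KO with PBS, with 6 of the 9 under 0.1 FPKM in each B16 WT group. That sum was 0.659 to 8.1 FPKM in B16 KO with anti-PD-1 and 8.36 to 89 FPKM in MC38. Fermt1 was at or near 0 in these groups and in B16 KO with PBS. The source of Fermt1 was not tested.

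**Figure D1:**
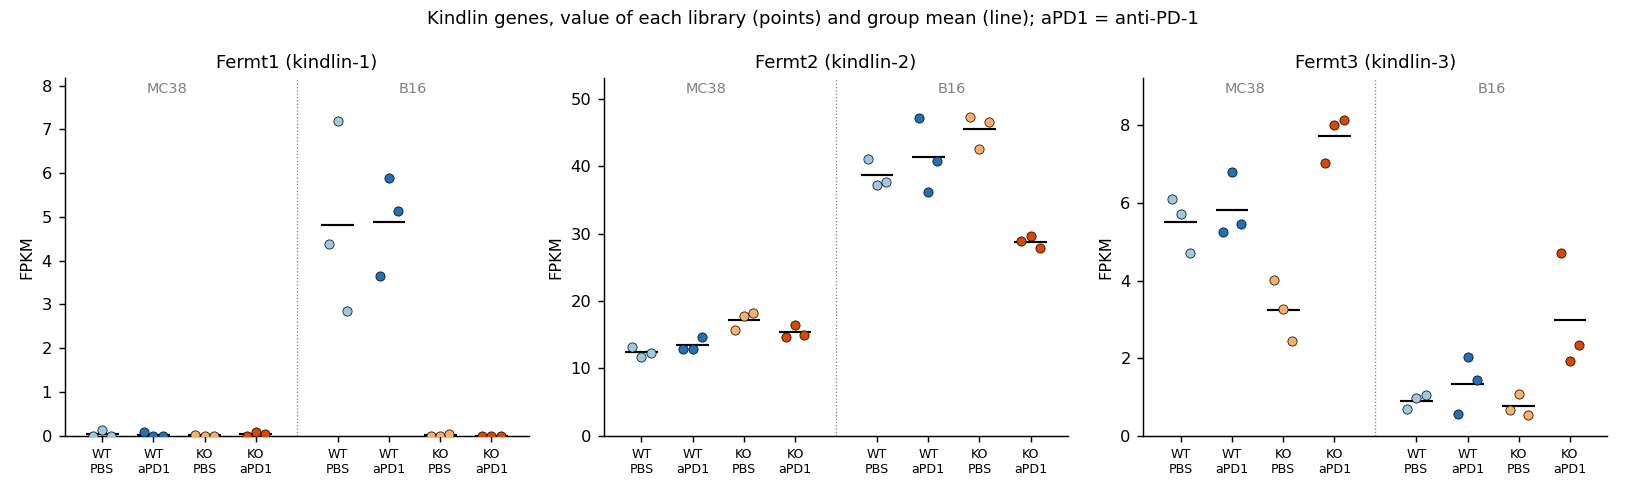
FPKM of Fermt1, Fermt2 and Fermt3 (vertical axes, linear) in the 8 groups (horizontal axis), with 1 point per library and a line at each group mean. Fermt1 points lie above 2 FPKM in the 6 B16 WT libraries and next to 0 in the other 18.

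Fermt2 was higher in B16 than in MC38 in every library. It was higher in MC38 KO with PBS and lower in B16 KO with anti-PD-1. In MC38 its values in replicates 1 to 3 were 13.2, 11.7 and 12.3 FPKM in WT with PBS against 15.7, 17.7 and 18.2 in KO with PBS. Every KO value was above every WT value, and the ratio of the group means was 1.39 (0.44 ± 0.08 on the log2 scale, adjusted p = 0.00368). With the antibody, means in MC38 were 13.4 ± 1.04 (SD, n = 3) in WT and 15.4 ± 0.959 in KO, without overlap but short of the threshold (0.18 ± 0.08, adjusted p = 0.168).

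In B16, Fermt2 was 41.0, 37.2 and 37.7 FPKM in WT with PBS and 47.3, 42.6 and 46.5 in KO with PBS, a difference short of the threshold (0.23 ± 0.09, adjusted p = 0.324). With anti-PD-1 it was 47.2, 36.2 and 40.7 FPKM in WT and 28.9, 29.6 and 27.9 in KO. The 3 KO libraries with anti-PD-1 were the lowest of the line. Fermt2 there was 0.697 times its level in WT with anti-PD-1 (-0.50 ± 0.09, adjusted p = 0.00183) and 0.633 times that in KO with PBS (-0.64 ± 0.09, adjusted p = 0.000445). The interaction of genotype and treatment in B16 was -0.73 ± 0.13 (adjusted p = 0.00422). These Fermt2 calls held in every alternative run, with adjusted p of 0.0179 or less.

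Fermt3, the kindlin of blood cells, was lower in MC38 KO than WT tumours with PBS, and in KO tumours of both lines it was higher with anti-PD-1 than with PBS. In MC38 WT it was 6.11, 5.73 and 4.70 FPKM with PBS and 5.25, 6.79 and 5.45 with anti-PD-1. In MC38 KO it was 4.01, 3.27 and 2.43 FPKM with PBS and 7.02, 8 and 8.15 with anti-PD-1. The KO libraries thus lay below all WT libraries with PBS and above all of them with anti-PD-1. The KO mean was 0.587 times the WT mean under PBS (-0.63 ± 0.14, adjusted p = 0.0101). Under anti-PD-1 the KO mean was 1.32 times the WT mean, which was not called (0.36 ± 0.14, adjusted p = 0.131). Within MC38 KO, anti-PD-1 libraries were 2.38 times the PBS libraries (1.06 ± 0.14, adjusted p = 0.00218). The interaction was 0.99 ± 0.20 (adjusted p = 0.0368), a call lost when 1 of 9 of the 12 libraries was left out, with adjusted p of 0.0525 to 0.0914. These 9 were WT PBS replicates 1 and 2, the 3 WT anti-PD-1 replicates, KO PBS replicates 2 and 3, and KO anti-PD-1 replicates 2 and 3. No filter (0.101) and the fit of 24 libraries (0.134) did not keep it either.

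In B16, Fermt3 was 0.687, 0.971 and 1.04 FPKM in WT with PBS, 0.655, 1.07 and 0.546 in KO with PBS, 0.566, 2.02 and 1.43 in WT with anti-PD-1, and 4.72, 1.92 and 2.33 in KO with anti-PD-1. Replicate 1 of the last group was the highest of the line, and replicate 2 overlapped with WT. Within B16 KO, anti-PD-1 libraries were 3.95 times the PBS libraries (1.13 ± 0.28, adjusted p = 0.00806). KO against WT under anti-PD-1 was at the threshold (0.76 ± 0.28, adjusted p = 0.0497). It was 0.46 without KO replicate 1 (adjusted p = 0.193) and 0.49 without WT replicate 1 (0.174), and was also lost without replicate 3 of WT (0.0848) or of KO (0.0567). The smaller pseudocount (0.0625), no filter (0.122) and a fit of those 6 libraries (0.12) did not keep it either.

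Markers of leukocytes moved with Fermt3. The summed FPKM of 8 leukocyte markers (Ptprc, Cd53, Coro1a, Laptm5, Cd52, Cytip, Lcp1 and Lcp2, all detected) was 183.7 to 220.8 in MC38 WT with PBS, 79.8 to 159 in MC38 KO with PBS and 257.9 to 298.3 in MC38 KO with anti-PD-1. In MC38 WT with anti-PD-1 it was 205.1 to 221.3. In B16 it was 24.6 to 43 in WT with PBS, 28.3 to 36.8 in KO with PBS and 59.5 to 155.8 in KO with anti-PD-1. B16 WT with anti-PD-1, at 24.2 to 69.5, overlapped with KO under anti-PD-1. Of these 8 markers, 7 were lower in MC38 KO than WT under PBS, against 11.6% of all genes. With anti-PD-1 in MC38 KO 7 were higher, against 6.12% of all genes. With anti-PD-1 in B16 KO, 5 of 7 tested were higher and 1 lower, against 18.9% and 25% of all genes. A marker low in the other B16 groups could pass the filter through those anti-PD-1 libraries alone. The B16 count is therefore no separate support. As a share of that sum, Fermt3 was 2.37% to 3.31% in the 12 MC38 libraries and 1.88% to 4.22% in the 12 B16 libraries. That share overlapped between all 4 MC38 groups. In B16 KO it was 1.88% to 2.91% with PBS and 3.03% to 3.22% with anti-PD-1, without overlap, while both B16 WT groups overlapped with these (2.26% to 4.22% with PBS and 2.34% to 3.48% with anti-PD-1). Macrophage markers (10, summed) were 1678.5 to 1967.6 FPKM in MC38 WT with PBS, 513.3 to 1305.1 in KO with PBS and 1811.7 to 2406.1 in KO with anti-PD-1, and 7 T-cell markers were 21.8 to 33.9, 3.08 to 6.29 and 26.8 to 36.9 FPKM. In bulk tumour RNA, fewer cells of a type and less RNA per cell cannot be told apart, and the part of cell numbers in the Fermt3 differences was not tested. Platelets also carry kindlin-3: 7 platelet markers summed to 25.8 to 119 FPKM in B16 KO with anti-PD-1, against 7.46 to 15 in B16 KO with PBS. In MC38 KO they overlapped, at 8.63 to 16.5 FPKM with anti-PD-1 and 11.1 to 12.1 with PBS.

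**Figure D2:**
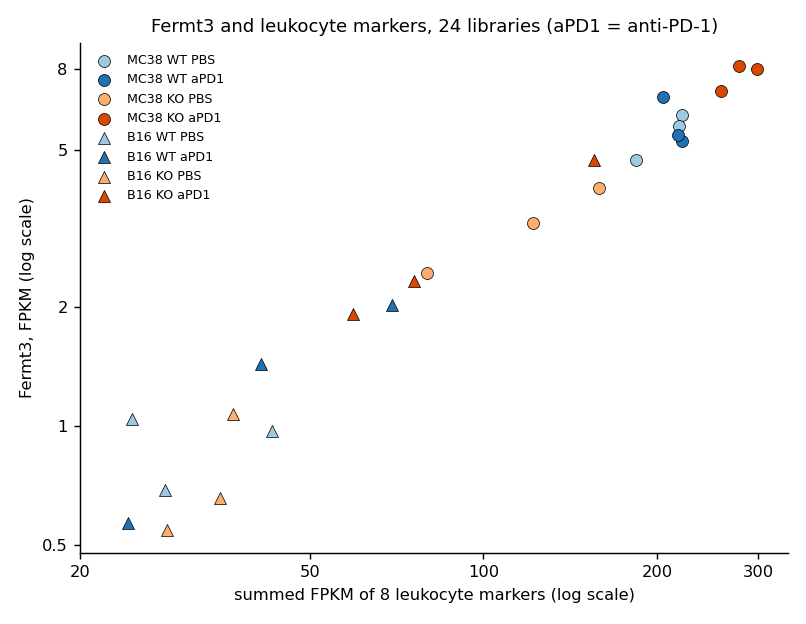
Fermt3 (vertical axis, FPKM, log scale) against the summed FPKM of 8 leukocyte markers (horizontal axis, log scale), 1 point per library, circles for MC38 and triangles for B16, coloured by group. Points of both lines lie along 1 band, with MC38 KO anti-PD-1 libraries at the top and B16 PBS libraries at the bottom.

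Tln1, whose product links the beta subunit to actin, on chromosome 4 (43531519 to 43562691), was at 30.9 to 42.3 FPKM in MC38 and 16.9 to 30.4 in B16. No difference between genotypes or treatments within a line was called. The largest difference between 2 groups of one line was anti-PD-1 against PBS in B16 KO, 24.2, 16.9 and 23.6 against 30.4, 27.7 and 23.7 FPKM (-0.34 ± 0.14, adjusted p = 0.0653). That difference passed the threshold when KO PBS replicate 3 (0.042) or KO anti-PD-1 replicate 1 (0.046) was left out, with quantile normalization (0.0302) and in a fit of all 24 libraries (0.0342).

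Itgav, the alpha-v gene, on chromosome 2 (83724397 to 83806916, plus strand), took 2 levels within single groups. In MC38 WT it was 7.57, 6.91 and 6.36 FPKM with PBS and 6.8, 7.28 and 7 with anti-PD-1. In MC38 KO it was 8.98, 28 and 23.4 FPKM with PBS and 8.37, 7.36 and 8.98 with anti-PD-1. Replicates 2 and 3 of KO with PBS were thus far above the other 10 MC38 libraries, while replicate 1 was within the range of KO under anti-PD-1. In B16 WT, Itgav was 8.22, 9.09 and 27.7 FPKM with PBS and 22.9, 23.9 and 22.3 with anti-PD-1. In B16 KO it was 7.73, 23.4 and 25.5 FPKM with PBS and 0.979, 0.996 and 1.32 with anti-PD-1.

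The ratio of the highest to the lowest Itgav value was 3.12 in MC38 KO with PBS, 3.37 in B16 WT with PBS and 3.29 in B16 KO with PBS. A ratio of 2.5 or more occurred in 2%, 1.41% and 1.5% of genes with a mean of at least 5 FPKM in those groups. The spread of Itgav within groups ranked at the 93.5 percentile of tested genes in MC38 and at the 96.5 percentile in B16. The annotation holds 9 transcript models of Itgav, 444 to 7054 bases long, and how FPKM was summed over them is not given in the sources used here. Whether the split reflects the tumours or the estimate was not tested.

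Itgav was higher in MC38 KO than WT under PBS (1.27 ± 0.30, adjusted p = 0.0121), a call that a fit of those 6 libraries alone did not keep (0.0547). Anti-PD-1 in MC38 KO gave -1.06 ± 0.30 (adjusted p = 0.052), and -1.53 (8.95e-05) without KO PBS replicate 1, the library at the lower level. Quantile normalization also brought it past the threshold (0.0474). In B16 KO with anti-PD-1 all 3 libraries were below all 9 others of the line. Itgav there was 0.0477 times its level in WT with anti-PD-1 (-3.52 ± 0.45, adjusted p = 0.000201) and 0.0582 times that in KO with PBS (-3.09 ± 0.45, adjusted p = 0.000447). The interaction in B16 was -3.88 ± 0.64 (adjusted p = 0.00267), and these 3 calls held in every alternative run. With limits chosen after the values were seen, 5 of 6524 genes at 5 FPKM or more in the other 9 B16 libraries were at 1.5 FPKM or less in all 3 of these: Itgav, Klhl11, Uprt, Qser1 and Zbed6. Of the other 7 groups, 6 held no such gene and MC38 KO with PBS held 1.

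Itga5, on chromosome 15 (103344286 to 103366763), encodes the alpha subunit of the classic fibronectin receptor. In MC38 it was 24.1, 25.4 and 22.1 FPKM in WT with PBS against 28.6, 29.3 and 30 in KO with PBS, with no overlap (0.29 ± 0.06, adjusted p = 0.00843). This call was lost in a fit of all 24 libraries (adjusted p = 0.127). Under anti-PD-1 it was 26 ± 1.06 (SD, n = 3) in WT and 29.2 ± 0.695 in KO (0.16 ± 0.06, adjusted p = 0.115). In B16 it was 9.89 to 12.9 FPKM in 11 libraries and 18.7 in KO anti-PD-1 replicate 1, and no B16 difference in Itga5 was called.

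Itga6, the laminin receptor subunit on chromosome 2 (71745616 to 71858416), changed in B16 KO with anti-PD-1. It was 7.82, 8.84 and 8.75 FPKM in B16 KO with PBS and 1.85, 3.86 and 3.8 in B16 KO with anti-PD-1. The B16 WT libraries were at 5.54 to 8.61 FPKM, and none of the 9 other libraries overlapped with KO under anti-PD-1. Itga6 was 0.374 times its PBS level (-1.22 ± 0.21, adjusted p = 0.00125) and 0.442 times the WT level under anti-PD-1 (-0.998 ± 0.21, adjusted p = 0.0039), with an interaction of -1.23 ± 0.30 (adjusted p = 0.0159). In MC38 it was 3.48 to 8.54 FPKM over all groups and was not called.

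Itgb1, the beta subunit shared by most matrix receptors, on chromosome 8 (128685654 to 128733200), had the highest level of the 10 genes in every library. In MC38 it was 258.7, 249.3 and 234.1 FPKM in WT with PBS, 254.2, 213.6 and 251.8 in WT with anti-PD-1, 202.8, 206.3 and 200 in KO with PBS, and 202.3, 198.7 and 193 in KO with anti-PD-1. All 6 KO values were below all 6 WT values. The KO mean was 0.821 times the WT mean under PBS (-0.28 ± 0.07, adjusted p = 0.018) and 0.826 times under anti-PD-1 (-0.27 ± 0.07, adjusted p = 0.0341). Averaged over treatments the difference was -0.28 ± 0.05 (adjusted p = 0.0027). Under PBS the call was lost without WT replicate 1 or 2 or KO replicate 3 (adjusted p of 0.0511 to 0.0561), and under anti-PD-1 without any single library except WT replicate 2 (0.0679 to 0.12). Quantile normalization ended the call under PBS (0.059), and no filter (0.0758) or a fit of 6 libraries (0.0857) the call under anti-PD-1.

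In B16, Itgb1 was 125.4 to 132.7 FPKM in WT and 118 to 133 in KO with PBS. In KO with anti-PD-1 it was 74, 107.4 and 102.6 FPKM, below the other 9 libraries. That group was 0.747 times WT with anti-PD-1 (-0.44 ± 0.12, adjusted p = 0.0133) and 0.750 times KO with PBS (-0.43 ± 0.12, adjusted p = 0.0136). Without its replicate 1 the differences were -0.27 and -0.26 and were still called, while fits of the 6 libraries compared did not keep them (0.058 and 0.0592).

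Itgb3, the beta-3 subunit of platelets and of invasive melanoma cells, on chromosome 11 (104608000 to 104670476), was steady in B16 WT and higher in B16 KO. It was 5.78 to 5.98 FPKM in the 6 B16 WT libraries, 8.91, 6.91 and 8.52 in KO with PBS and 8, 6.52 and 6.99 in KO with anti-PD-1. Every KO value exceeded every WT value. Averaged over treatments the difference was 0.32 ± 0.07 (adjusted p = 0.00718), while those under PBS (0.40 ± 0.10, adjusted p = 0.114) and anti-PD-1 (0.24 ± 0.10, adjusted p = 0.0703) did not pass, the latter except with quantile normalization (0.0215). In MC38, Itgb3 was 1.22 to 3.42 FPKM and no difference was called.

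Itgb5, the other main partner of alpha-v, on chromosome 16 (33829665 to 33949338), was far above Itgb3 in MC38 and level with it in B16. The ratio of Itgb5 to Itgb3 FPKM was 9.67 to 33.6 in MC38 and 0.621 to 1.74 in B16. In MC38 with anti-PD-1, Itgb5 was 26.4, 26.6 and 30.9 FPKM in WT and 39.3, 41.7 and 41 in KO, without overlap (1.45 times, 0.53 ± 0.10, adjusted p = 0.00866). With PBS it was 33, 31.4 and 39.8 FPKM in WT and 44.6, 41.1 and 36.5 in KO, which overlapped (0.23 ± 0.10, adjusted p = 0.13, and 0.0394 without WT replicate 3). In B16 with anti-PD-1 it was 6.42, 7.21 and 6.67 FPKM in WT and 10.2, 10.9 and 12.1 in KO (1.64 times, 0.64 ± 0.24, adjusted p = 0.0497). This last call was lost when any 1 of the 6 libraries was left out (0.0769 to 0.117), with the smaller pseudocount (0.0577) and without the filter (0.12).

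**Figure D3:**
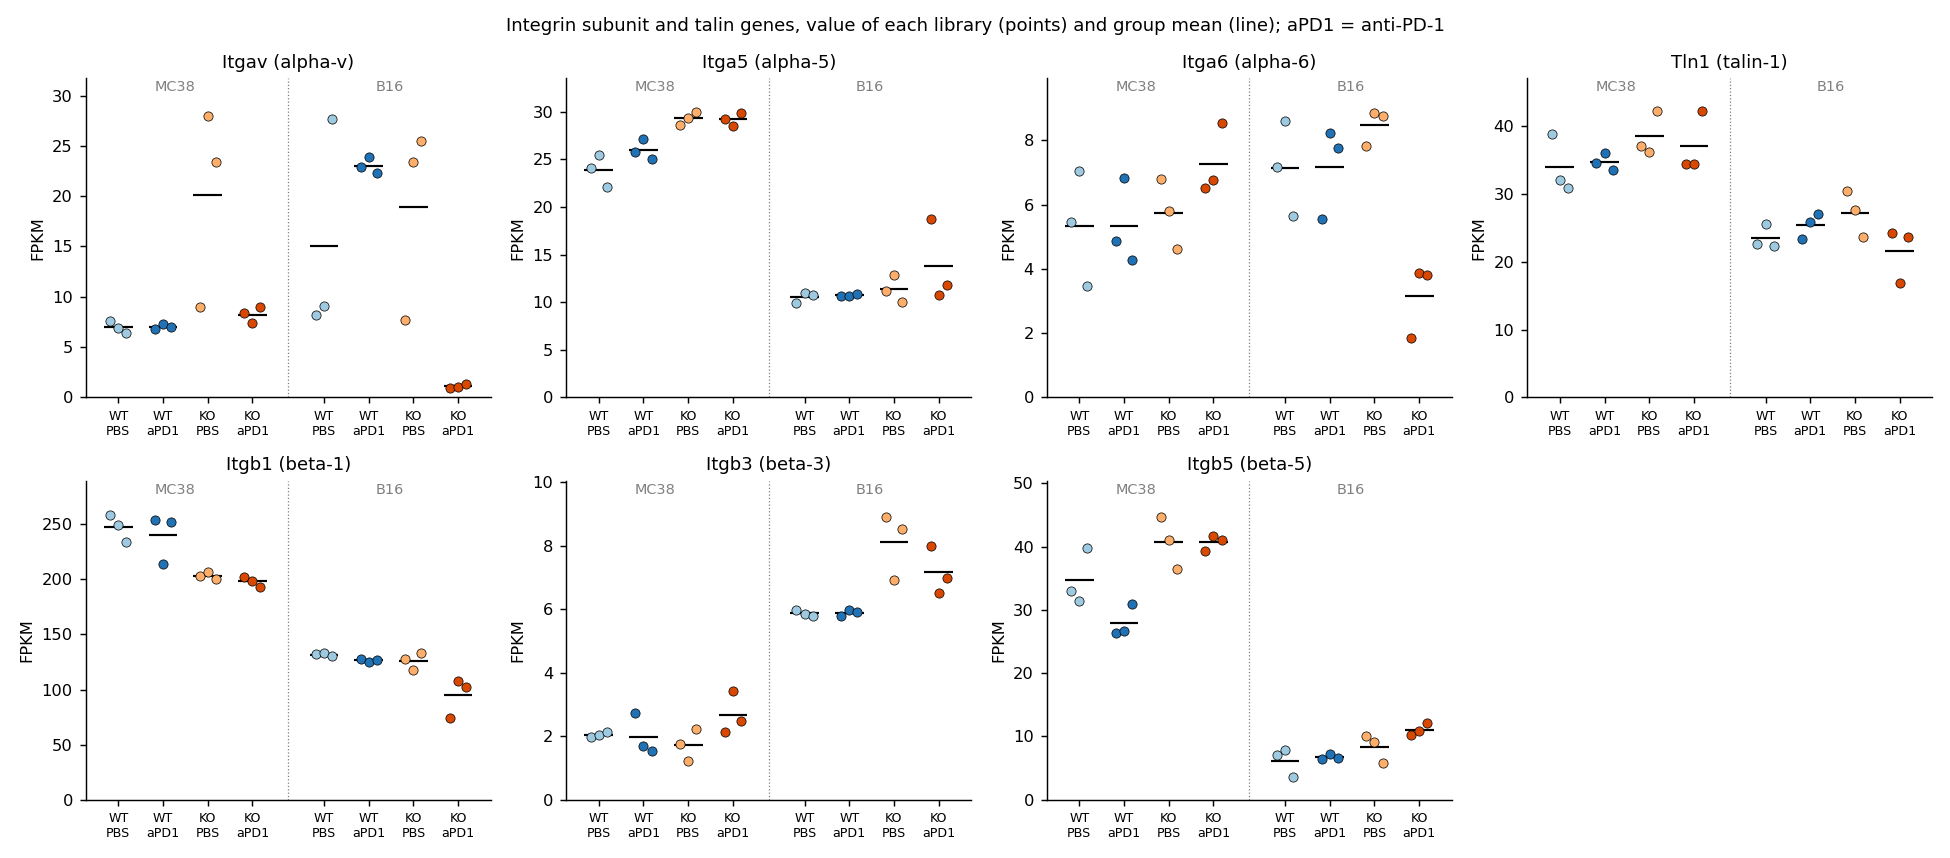
FPKM of Itgav, Itga5, Itga6, Tln1, Itgb1, Itgb3 and Itgb5 (vertical axes, linear) in the 8 groups (horizontal axis), with 1 point per library and a line at each group mean. Itgav points split into 2 levels within 3 of the 4 PBS groups and fall to about 1 FPKM in B16 KO with anti-PD-1.

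Between the lines, in WT tumours with PBS, 5 of the 10 genes were higher in MC38 and 3 were lower, where 62.3% of 15655 genes tested were called, 31.1% higher and 31.2% lower. Itgb5 was 5.63 times (2.37 ± 0.19, adjusted p = 1.95e-09), Fermt3 6.14 times, Itga5 2.27 times, Itgb1 1.88 times and Tln1 1.44 times as high in MC38. Fermt2 was 0.321 times as high (-1.57 ± 0.09, adjusted p = 5.83e-12), Itgb3 0.349 times, and Fermt1 was near 0 in MC38. Itgav (adjusted p = 0.0954) and Itga6 (0.144) were not called, and each passed when 1 library was left out, Itgav without B16 WT PBS replicate 1 (0.0409) and Itga6 without MC38 WT PBS replicate 2 (0.0445).

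In MC38, KO against WT under PBS called 5 of the 9 genes tested, 3 higher (Fermt2, Itgav, Itga5) and 2 lower (Fermt3, Itgb1), against 23.4% of all 14209 genes, 11.9% higher and 11.6% lower. The median difference of the 9 was 0.18, and that of all genes 0.005. Under anti-PD-1, 2 of 9 were called, Itgb5 higher and Itgb1 lower, against 12.1% of all genes, 5.01% higher and 7.05% lower. In a fit of all 24 libraries, Fermt3 (adjusted p = 0.0625), Itgb1 (0.0516) and Itga5 (0.127) lost their calls under PBS and Itgb1 (0.0916) and Itgb5 (0.0905) under anti-PD-1. Averaged over treatments, Fermt2 (0.31 ± 0.06), Itgav (0.74 ± 0.21), Itgb5 (0.38 ± 0.07) and Itga5 (0.23 ± 0.04) were higher and Itgb1 lower, against 27.4%, 13.4% and 14% of all genes called in either direction, higher and lower. The averaged Itgav call was lost when replicate 2 or 3 of WT with PBS, 1 of WT with anti-PD-1, 3 of KO with PBS or 3 of KO with anti-PD-1 was left out (adjusted p of 0.0503 to 0.0576), without the filter (0.0699) and in the fit of 24 libraries (0.075), where Itga5 (0.0805) and Itgb5 (0.0502) were lost too.

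Anti-PD-1 called none of the 9 genes in MC38 WT with limma, where 0% of all genes were called. At an unadjusted p under 0.05 there were 1 of the 9 (Itgb5, 0.0142) and 1953 of all genes, and 0 of the 9 were called under each alternative run. In MC38 KO it called Fermt3 alone, higher, against 8.99% of all genes, 6.12% higher and 2.86% lower. Fermt3 was also the single call of the 9 for the interaction, against 2.44% of genes, 1.81% higher and 0.626% lower. Itgav had an interaction of -1.07 ± 0.42 (adjusted p = 0.191), which passed without KO PBS replicate 1 (0.00134).

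In B16, KO against WT under PBS called Fermt1 alone of 10, lower, where 0.47% of 13627 genes were called, 0.279% higher and 0.191% lower. A fit without the 3 B16 KO anti-PD-1 libraries gave the same call (-2.45 ± 0.25, adjusted p = 0.00628). Quantile normalization moved the all-gene split from 38 higher and 26 lower to 45 and 19. Under anti-PD-1, 7 of 10 were called, Fermt1, Fermt2, Itgav, Itgb1 and Itga6 lower and Fermt3 and Itgb5 higher. Of all genes, 40.8% were called, 14.9% higher and 25.9% lower. Leaving out 1 library at a time gave 5 to 6 of the 10. Anti-PD-1 in B16 KO called 5 of 10, Fermt2, Itgav, Itgb1 and Itga6 lower and Fermt3 higher, against 43.9% of all genes, 18.9% higher and 25% lower. Those comparisons share the KO anti-PD-1 libraries. Anti-PD-1 in B16 WT called 0 of 10 (0% of all genes; 0 of 10 and 281 of all genes at an unadjusted p under 0.05).

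Markers of other tissues that moved in B16 KO with anti-PD-1 are given beside these calls. Skeletal muscle markers (7) summed to 1534.3, 139.9 and 6.7 FPKM in its replicates 1 to 3 against at most 1.27 in the other B16 groups, and 9 endothelial markers to 36.6 to 71.5 FPKM against 15.8 to 34.6. Muscle sums were uneven in MC38 too. They were 0.373 to 27 FPKM in WT with PBS, 10.1 to 261.8 in WT with anti-PD-1, 1.36 to 105 in KO with PBS and 19.4 to 396.1 in KO with anti-PD-1. The 7 T-cell markers summed to 6.93 to 19.5 FPKM against at most 4.58 in the other B16 groups. The 3 that could be tested were higher than in KO with PBS and than in WT with anti-PD-1, against 18.9% and 14.9% of all genes. They could pass the filter through the libraries of this group alone, so their calls describe the same contrast and are no separate support. Macrophage markers (10) summed to 506.7 to 1307 FPKM against 100.8 to 550.4, and 8 were higher than in KO with PBS. Fibroblast and pericyte markers (10) summed to 81.9 to 408.4 FPKM against 24.2 to 170, and 6 were higher than in KO with PBS. Both counts stand against 18.9% of all genes called higher in that comparison. Any of these markers low in the other B16 groups could pass the filter through this group alone, so the counts are no separate support. Replicate 1, with the highest muscle, platelet (119 FPKM) and leukocyte (155.8 FPKM) sums, was also the library with the highest Itga5 and Fermt3 and the lowest Itgb1 and Itga6 of the line. Itgav and Fermt2 in replicates 2 and 3, with lower muscle sums, were likewise below the other 9 B16 libraries. The part of these other tissues in the differences was not tested.

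Averaged over treatments, B16 KO was lower than WT for Fermt1 (-2.50 ± 0.17, adjusted p = 2.5e-05), Itgav (-1.58 ± 0.32, adjusted p = 0.00499) and Itgb1 (-0.25 ± 0.08, adjusted p = 0.0471). It was higher for Itgb3 and Itgb5 (0.52 ± 0.17, adjusted p = 0.0389), against 26.5% of all genes called, 7.54% higher and 19% lower. Under PBS alone, Itgav was 0.36 ± 0.45 and Itgb1 -0.06 ± 0.12, against -3.52 and -0.44 under anti-PD-1. The averaged Itgb1 call was lost without any 1 of the 9 libraries outside KO anti-PD-1 (0.0527 to 0.101). That of Itgb5 was lost without 9 of the 12, all but WT PBS replicates 1 and 2 and KO PBS replicate 3 (0.0505 to 0.0889). Neither was kept without the filter (0.103 and 0.102). Itga6 (-0.38, adjusted p = 0.0826) passed without WT anti-PD-1 replicate 1 (0.0471). The interaction in B16 called 3 of 10, Fermt2, Itgav and Itga6, all lower, against 23.5% of all genes, 8.9% higher and 14.6% lower.

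The averaged KO effect was called higher in MC38 than in B16 for 4 of the 10 genes, against 31.3% of all genes, 19.7% higher and 11.6% lower. One of them, Fermt1 (2.48), is no comparison of 2 KO effects: it was at or near 0 in all 12 MC38 libraries, so the value restates the B16 difference. The others were 0.45 ± 0.09 for Fermt2 (adjusted p = 0.000624), 2.32 ± 0.41 for Itgav (0.000313) and 0.64 ± 0.23 for Itga6 (0.0375). Under PBS alone, without the group that stood apart, Fermt2 (0.21, adjusted p = 0.25), Itgav (0.91, adjusted p = 0.483) and Itga6 (-0.11, adjusted p = 0.843) were not called. The averaged Itga6 call was also lost when 1 of 12 of the 24 libraries was left out (0.0537 to 0.0709), with quantile normalization (0.0676) and without the filter (0.0836). Of the 12 libraries, 6 were MC38 (WT PBS 3, WT anti-PD-1 1 and 3, KO PBS 1 and 2, KO anti-PD-1 3) and 6 B16 (WT PBS 1 and 2, WT anti-PD-1 2 and 3, KO PBS 1, KO anti-PD-1 1).

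**Figure D4:**
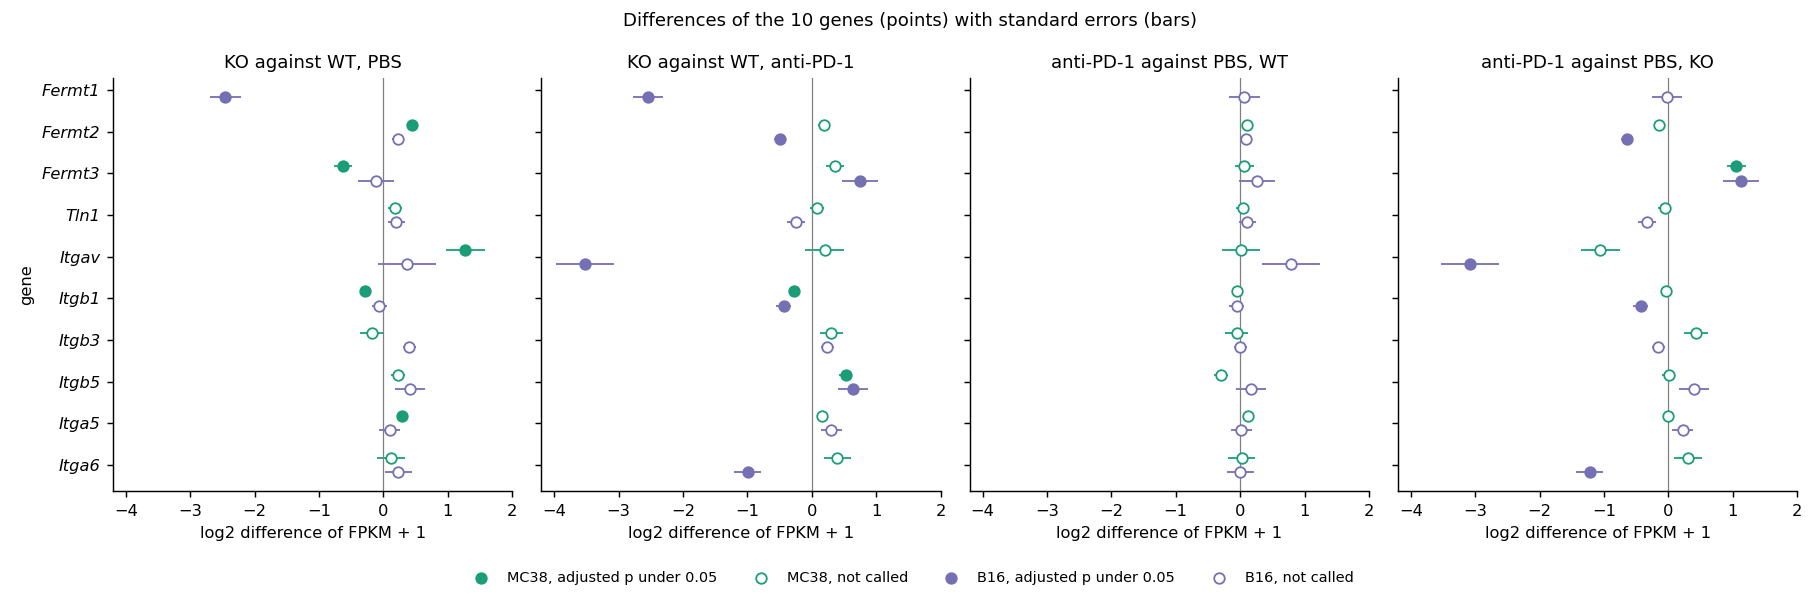
Log2 difference of FPKM + 1 (horizontal axes) with its standard error (bars) for the 10 genes (rows) in 4 comparisons (panels), green for MC38 and purple for B16, filled where the adjusted p was under 0.05. No gene is filled for anti-PD-1 in WT, and the points farthest from 0 are Fermt1 and Itgav in B16.

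The rest of the pathway was read from lists set up with earlier results of these data known. The counts below stand against the shares of all genes called in either direction: 23.4% for KO against WT under PBS, 12.1% under anti-PD-1 and 8.99% for anti-PD-1 in KO in MC38, and 0.47%, 40.8% and 43.9% for the same comparisons in B16. Tln2, the other talin gene, was higher in MC38 KO than WT under PBS (5.82 ± 1.04 against 3.62 ± 0.185 FPKM, SD, n = 3; adjusted p = 0.00447) and lower in B16 KO than WT under anti-PD-1 (1.86 ± 0.0824 against 2.93 ± 0.458 FPKM, adjusted p = 0.00571). Tln2 was also lower with anti-PD-1 in MC38 KO (adjusted p = 0.0162) and in B16 KO (0.00299).

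Among 9 other alpha subunits tested in MC38, 1 was higher and 2 lower in KO under PBS (23.4% of all genes called), and 5 were higher and 0 lower with anti-PD-1 in KO (8.99%). Itgal, the alpha subunit of the lymphocyte receptor LFA-1, rose there from 2.44 ± 0.645 to 8.58 ± 0.386 FPKM (1.49 ± 0.17, adjusted p = 0.00109). Itga4, which leukocytes use to bind VCAM-1, was 3.73 ± 0.897 FPKM in WT with PBS, fell to 1.33 ± 0.556 in KO with PBS (adjusted p = 0.00275) and was 4.62 ± 0.653 in KO with anti-PD-1 (adjusted p = 0.00236). Of 5 genes tested from the list of other beta subunits, 3 were lower in MC38 KO under PBS. Among them were Itgb7, the partner of alpha-4 (-0.90 ± 0.16, adjusted p = 0.00278), and Itgbl1 (-1.77 ± 0.24, adjusted p = 0.00085). Itgbl1 is a beta-like gene that was counted in the list but is not an integrin subunit. With anti-PD-1 in KO, 3 were higher and 1 lower. Itgb2, the beta subunit of leukocyte integrins, rose from 16.8 ± 5.99 to 39.9 ± 3.37 FPKM (adjusted p = 0.00271). The leukocyte marker sums given beside Fermt3 moved in the same comparisons.

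In B16, 7 other alpha and 2 other beta subunits were tested. Itga4 was 10.4 ± 0.648 FPKM in WT with anti-PD-1 and fell to 4.27 ± 0.774 in KO with anti-PD-1 (adjusted p = 0.000359). Itga1, a collagen receptor subunit, fell from 5.39 ± 0.717 to 2.85 ± 0.419 FPKM (adjusted p = 0.000399). With anti-PD-1 in B16 KO, 3 alpha subunits were higher and 3 lower, and Itgb7 (adjusted p = 0.0103) and Itgb2 (0.0413) were both higher. Itgb7 was 2.29 ± 1.69 FPKM there against 0.266 ± 0.186 with PBS. The PBS mean was under the 1 FPKM of the filter, which Itgb7 could pass through its anti-PD-1 libraries. Any alpha subunit low in the other groups could pass in the same way. The counts of subunits called higher are therefore no separate support.

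Of 24 focal adhesion adaptors and kinases tested in MC38, 2 were higher and 6 lower in KO under PBS, with a median difference of -0.02. Tns2, a tensin, was higher (0.50 ± 0.10, adjusted p = 0.0058) and Nedd9, a docking protein of the Cas family, was lower (-0.73 ± 0.13, adjusted p = 0.00279). Under anti-PD-1, 4 were lower, among them Parva, parvin of the integrin-linked kinase complex (-0.32 ± 0.07, adjusted p = 0.0192), and Bcar1 (-0.41 ± 0.11, adjusted p = 0.0352). Anti-PD-1 in MC38 KO had 3 higher and 1 lower, led by Ptk2b (1.07 ± 0.14, adjusted p = 0.00203) and Lpxn (1.05 ± 0.17, adjusted p = 0.0043). In B16 KO against WT with anti-PD-1, 1 of 21 was higher and 4 lower, against 40.8% of all genes. Vcl, vinculin, which talin recruits, fell from 11.3 ± 2.75 to 4.78 ± 0.319 FPKM (-1.07 ± 0.16, adjusted p = 0.000606), and Tns3 was lower as well (adjusted p = 0.0151).

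Switches and inhibitors of integrin activation were called in both directions. Rap1b, the small GTPase that brings talin to the membrane, fell from 119.5 ± 3.71 to 85.2 ± 10.3 FPKM in MC38 KO under PBS (adjusted p = 0.00266), the 1 call among 4 switches, and rose to 107.2 ± 6.02 with anti-PD-1 (adjusted p = 0.0322). Of 7 inhibitors tested, 3 were lower in MC38 KO under PBS, among them Itgb1bp1, which binds the beta-1 tail (-0.29 ± 0.08, adjusted p = 0.022), and Dab2 (-0.41 ± 0.13, adjusted p = 0.0369). In B16 KO against WT with anti-PD-1, 2 of 9 inhibitors were higher and 2 lower. Flna, filamin A, which competes with talin for the tail, fell from 56.1 ± 3.75 to 33.3 ± 6.21 FPKM (adjusted p = 0.00208), while Dok1 rose (0.61 ± 0.13, adjusted p = 0.00401). Of the 4 switches there, Raph1 was the 1 call, lower (-0.51 ± 0.13, adjusted p = 0.00833). With anti-PD-1 against PBS in B16 KO, 2 of 4 switches were higher and 1 lower, and 3 of 9 inhibitors were higher and 2 lower, against 43.9% of all genes. There Apbb1ip, which links Rap1 to talin, was higher (0.72 ± 0.20, adjusted p = 0.0148) and Raph1 lower (-0.47 ± 0.13, adjusted p = 0.0118), and the inhibitors Flna (-0.84 ± 0.14, adjusted p = 0.00111) and Kank1 (-0.48 ± 0.12, adjusted p = 0.00998) were lower. Apbb1ip was 1.6 ± 0.51 FPKM there against 0.567 ± 0.136 with PBS. The PBS mean was under the 1 FPKM of the filter, which Apbb1ip could pass through its anti-PD-1 libraries, so the call is no separate support. With anti-PD-1 in MC38 KO, 1 of 4 switches and 1 of 7 inhibitors were higher and 1 of each lower.

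Genes of the list of ligands of RGD-binding integrins, which include those with alpha-v, changed in both directions. The list also counts Ltbp1, Nrros and Lrrc32, which hold latent TGF-beta, so its counts are not of integrin ligands alone. In MC38 KO under PBS, 4 of 16 were higher and 1 lower. Tnc, tenascin-C, rose from 8.01 ± 3.04 to 24.4 ± 5.95 FPKM (1.52 ± 0.30, adjusted p = 0.00512), and Ltbp1, which stores latent TGF-beta in the matrix, fell from 14 ± 3.22 to 7.55 ± 1.37 FPKM (adjusted p = 0.00736). With anti-PD-1 in MC38 KO, 3 were higher and 4 lower. Fn1, fibronectin, fell from 375.5 ± 33 to 213 ± 24.3 FPKM (-0.82 ± 0.12, adjusted p = 0.00344), and Edil3 fell as well (adjusted p = 0.00434). In B16 KO against WT with anti-PD-1, 4 of 15 were higher and 1 lower, with Spp1, osteopontin, at 59.9 ± 26.6 against 25.6 ± 0.674 FPKM (adjusted p = 0.00541) and Mfge8 at 13 ± 4.05 against 7.41 ± 0.179 FPKM (adjusted p = 0.00965).

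Laminin chains, ligands of alpha-6 receptors, were lower wherever a comparison of genotype or treatment called them. In MC38, 0 of 5 were called in KO under PBS, and Lamc1, the gamma-1 chain, was the 1 call in KO against WT under anti-PD-1 (38.2 ± 1.07 against 54.8 ± 3.65 FPKM, adjusted p = 0.00411). In B16 KO against WT with anti-PD-1, 2 of 5 were lower, Lamc1 (-0.73 ± 0.13, adjusted p = 0.00161) and Lama5 (-0.70 ± 0.19, adjusted p = 0.0132). Under PBS in B16 KO, no gene of the pathway lists was called.

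**Figure D5:**
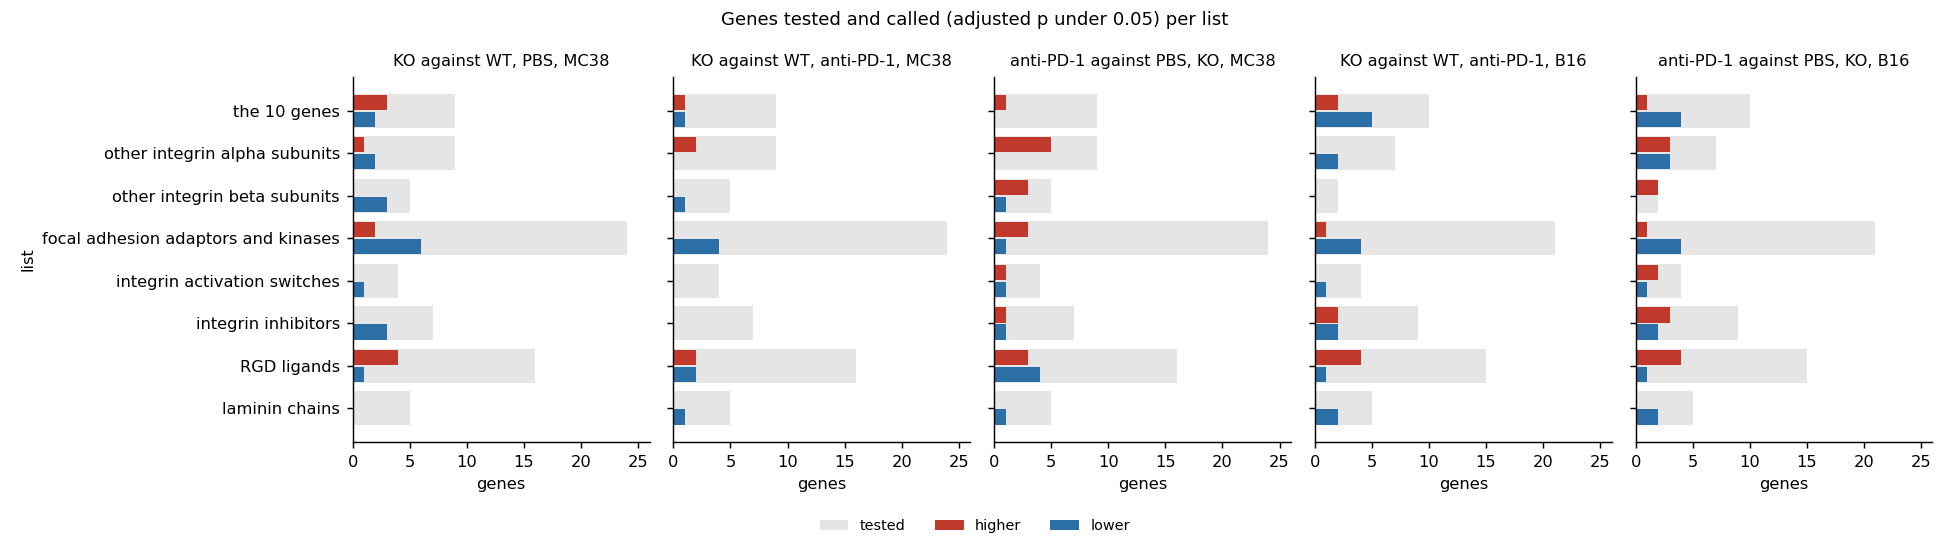
Number of genes tested (grey bars), higher (red) and lower (blue) at an adjusted p under 0.05 (horizontal axes) for the 10 genes and 7 pathway lists (rows) in 5 comparisons (panels). Adaptors and kinases form the longest list, with 24 tested in MC38 and 21 in B16, and most of its genes were not called.

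The genes whose log2 pattern over the 12 libraries of a line was most like each of the 10 were listed by Pearson r, as a description over libraries that share groups. For Fermt3 they were Spn (0.98), Ptpn22 (0.979) and Efhd2 (0.978) in MC38, and Lsp1 (0.988), Myo1g (0.987) and Lrrc25 (0.985) in B16. For Fermt1 in B16 they were Ubfd1 (0.95), Bicd2 (0.947) and Zbtb40 (0.943). Those nearest to Fermt2 were Gstp2 (0.924), Phlda3 (0.917) and Hist1h4k (0.917) in MC38 and Homer1 (0.969), Lrrfip1 (0.969) and Maml1 (0.963) in B16. For Itgav they were Tln2 (0.948), Mmadhc (0.922) and Cwc25 (0.92) in MC38, and Ktn1 (0.966), Car13 (0.959) and Prkx (0.958) in B16. For Itgb1 they were Nsrp1 (0.967), Fundc2 (0.966) and Ssr4 (0.962) in MC38 and Zfyve9 (0.985), Ttbk2 (0.982) and Thoc2 (0.981) in B16. No gene was among the 3 nearest to the same member in both lines.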

How the data were processed

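RNA-seq of tumour tissue gave 24 libraries, 3 in each of 8 groups taken from the labels' condition field. Total RNA was taken with Trizol and libraries followed standard Illumina protocols, per the labels' protocols. FastQC, STAR 2.5, Cuffnorm, DESeq and mm10 are listed, with no role or order, per the submitters' processing notes. The deposited files hold values taken as FPKM, which the authors made from their reads, since they are not whole numbers and their sums differ between libraries. The authors' normalization, annotation and strand setting are not given in the sources used here. Whole multiples of 1 step (tolerance 0.02) made up just 14.4% to 18.6% of the low values, so no count test was run. None of 276 library pairs shared more than 0.0302% of its nonzero values, and replicates correlated at 0.979 to 0.992.

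Gene IDs were matched to GENCODE mm10 symbols, 55154 with and 181 without a match. Promoters came from RefSeq (GRCm38.p6), where 8 of the 10 genes matched. The test was limma 3.58.1 (R 4.3.3) on log2 of FPKM with a pseudocount of 1, fitting 1 mean per group and a mean-variance trend. It used genes reaching 1 FPKM in 3 or more libraries: 14209 in MC38, 13627 in B16 and 15655 in a fit of both. P-values were adjusted over all genes tested by the Benjamini-Hochberg method, and an adjusted p under 0.05 was called. A fold is a ratio of mean FPKM, and a log2 difference understates the change of low genes. The steps were tested on simulated data. Alternatives were pseudocount, filter, quantile normalization, fits of 24 or 6 libraries and each library left out, and fits without the B16 KO anti-PD-1 group chosen after seeing the data. The members and lists were chosen with earlier results of these data known. Named genes are the 10 members, the 2 called genes of each pathway list with the smallest adjusted p in comparisons described, and the 3 nearest by correlation. Genes said to be singled out afterwards, and the genes beside Fermt1, fall outside this rule.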

Additional observations from a re-analysis of the deposited data

Results flagged for a closer look

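In 8 results the difference between 2 groups' effects was itself tested with limma and passed an adjusted p of 0.05. In MC38 the anti-PD-1 effect on Fermt3 was higher in KO than in WT by 0.99 (log2 scale, adjusted p = 0.0368). That call was lost in 9 of 12 fits with 1 library left out (0.0525 to 0.0914). It was also lost without the filter (0.101) and in the fit of 24 libraries (0.134). In B16 the anti-PD-1 effect was lower in KO than in WT for Fermt2 (-0.73, adjusted p = 0.00422), Itgav (-3.88, adjusted p = 0.00267) and Itga6 (-1.23, adjusted p = 0.0159). The KO effect averaged over treatments was higher in MC38 than in B16 for Fermt1 (2.48, adjusted p = 2.54e-08), Fermt2 (0.45, adjusted p = 0.000624), Itgav (2.32, adjusted p = 0.000313) and Itga6 (0.64, adjusted p = 0.0375). The Fermt1 value restates its B16 difference, since Fermt1 was at or near 0 in all 12 MC38 libraries and no KO effect could be measured there. Under PBS alone the line difference was not called for the other 3. In Fermt3, leukocyte markers moved with the difference, and in the B16 genes the libraries of KO with anti-PD-1 also differed in muscle, platelet and endothelial markers. Their part was not tested.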

How the results depend on the processing

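Over 1842 results of a gene under an alternative, 1738 kept their side of the threshold, of which 53 changed sign while not called in either fit, 90 lost a call, 13 gained one and 1 called result changed sign: Itga6 in the KO effect of MC38 minus B16 was -0.11 under PBS alone, against 0.64. The cause was not tested. In the fit of all 24 libraries, the genes called fell from 5 to 2 for KO against WT under PBS in MC38, from 2 to 0 under anti-PD-1, from 5 to 2 averaged over treatments and from 1 to 0 for the interaction. Without the filter they were 1 for KO against WT under anti-PD-1 in MC38, 0 for the MC38 interaction and 3 (from 5) for the averaged B16 effect. The fit of 6 libraries gave 1 for KO against WT under anti-PD-1 in MC38. Quantile normalization gave 2 (from 1) for anti-PD-1 in MC38 KO. The KO effect under PBS, MC38 minus B16, called 1 gene (Fermt1, near 0 in MC38) against 4. Leaving out 1 library at a time gave 1 to 2 for KO against WT under anti-PD-1 in MC38, 1 to 2 for anti-PD-1 in MC38 KO, 0 to 2 for the MC38 interaction and 3 to 4 for the averaged B16 effect. Over all genes, leaving out any 1 of 6 libraries gave 7 to 14 higher and 2 to 4 lower for KO against WT under PBS in B16. Leaving out 1 library gave 36 to 558 and 12 to 167 for the MC38 interaction (11 of 12 libraries moved it by over 1.5 times), 326 to 555 and 511 to 728 for KO against WT under anti-PD-1 in MC38 (712 and 1002), 475 to 935 and 140 to 423 for anti-PD-1 in MC38 KO, and 1086 to 1536 and 1022 to 1479 for KO against WT under PBS in MC38 (1686 and 1643; by over 1.5 times without WT replicate 2). With every library, KO against WT under PBS in B16 called 38 higher and 26 lower, 24 and 18 with the lower pseudocount, 21 and 12 without the filter, 145 and 186 in the fit of 24, and 19 and 5 in the fit of 6 libraries. The MC38 interaction called 257 and 89, against 31 and 14 without the filter and 143 and 75 in the fit of 24. Anti-PD-1 in MC38 KO called 870 and 407, against 495 and 149 in the fit of 6. Anti-PD-1 in WT called 0, against 2 and 3 without the filter, 41 and 38 in the fit of 24 and 3 and 0 in the fit of 6 in MC38, and 0 and 0, 1 and 0, and 3 and 0 in B16. No paired analysis was possible because the labels give no replicate numbers, and the numbers used follow the order of the records. Depth in reads is unknown, so values near 0 carry no interval.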
